A study of Mus musculus with 18 samples.

Results

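The 32 genes described here encode the regulators of sterol-controlled transcription and the enzymes that make cholesterol and fatty acids. They were chosen by symbol from the 55291 genes of the count table. The rule uses no measured value, but earlier results of these data were known when it was set. They fall into 5 regulators of the sterol regulatory element-binding proteins (SREBPs), 8 enzymes of the mevalonate arm that leads from acetyl-CoA to squalene, 10 enzymes of the sterol arm that leads from squalene to cholesterol, and 9 enzymes of fatty acid synthesis. RNA was measured in mouse oocytes in which Vps34, the class III phosphatidylinositol 3-kinase gene listed as Pik3c3, had been deleted, and in control oocytes. In ZcKO females both Vps34 alleles were floxed and a Zp3-Cre transgene was present, whose promoter acts in growing oocytes. Control females carried the same floxed alleles and no Cre, so both genotypes share the floxed locus, and all females were 5 weeks old. Metaphase II (MII) oocytes were taken after ovulation, 14 h after hCG, and fully grown germinal vesicle (GV) oocytes 46 h after PMSG. The 4 groups were MII ZcKO, MII control, GV ZcKO and GV control, with 3 libraries in each, every library pooling 5 oocytes. Libraries were made by Smart-seq2, which primes cDNA on the poly(A) tail, with ERCC spike-in RNAs added. Not analysed here are 6 samples of 2-cell embryos.

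SREBP precursors sit in the endoplasmic reticulum bound to SCAP, which escorts them to the Golgi for cleavage when sterols are scarce; INSIG proteins hold SCAP back when sterols are plentiful, and the INSIG1 gene is itself an SREBP target. Released SREBP2 mainly turns on cholesterol synthesis genes and SREBP1 mainly fatty acid synthesis genes. Mouse oocytes are known to carry out little of the cholesterol pathway themselves and to receive cholesterol made by the surrounding cumulus cells, and fully grown oocytes transcribe almost nothing until after fertilisation.

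Each library held between 2609783 and 4696626 gene counts. All 15 oocyte markers were detected in all 12 libraries. Pik3c3 had 5.36, 2.42 and 3.21 CPM (counts per 1000000 gene counts of a library) in MII ZcKO libraries, against 10.6, 21.4 and 17.1 CPM in MII control libraries. At GV it had 1.56, 1.65 and 2.67 CPM in ZcKO, against 35.5, 28.8 and 25.8 CPM in control. The genotypes did not overlap at either stage, and edgeR's quasi-likelihood test called the difference at GV (adjusted p = 1.51e-04) and not at MII (adjusted p = 0.530). ERCC counts made up 29.3% to 39.9% of all counts at MII and 7.09% to 18.7% at GV. When libraries were scaled to their ERCC totals, the median gene was lower at MII by a log2 change of -2.37 in ZcKO and -1.72 in control. Below, "relative to other mRNA" marks values scaled by TMM to the bulk of genes, and "per spike-in" marks values scaled to ERCC. Fewer cells and less RNA per cell cannot be told apart in such pools, nor can fewer mRNA molecules and shorter tails that escape priming. GV ZcKO replicate 1 stood apart with the highest ratio of gene to ERCC counts, 13.1, against 4.35 to 8.69 in the other GV libraries.

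Promoter windows of 5 members are shown because they differ in the direction in which their transcripts moved between GV and MII. Relative to other mRNA, Insig1, Hmgcs1 and Idi1 were higher at MII, and Mvd and Nsdhl were lower; per spike-in Insig1 and Idi1 were not called and Hmgcs1 was lower. Each window holds the 250 bases before the RefSeq start (GRCm38.p6), given 5′ to 3′ on the strand of the gene, with capitals marking matches to 4 motifs on either strand. CCAAT is the core bound by NF-Y, GGGCGG that bound by Sp1, CACGTG is an E-box and TCACNCCAC a sterol regulatory element consensus. The windows lie at chr5:28071162-28071411 (plus strand), chr13:119690101-119690350 (plus strand), chr13:8885356-8885605 (plus strand), chr8:122443423-122443672 (minus strand) and chrX:72918271-72918520 (plus strand).
Insig1: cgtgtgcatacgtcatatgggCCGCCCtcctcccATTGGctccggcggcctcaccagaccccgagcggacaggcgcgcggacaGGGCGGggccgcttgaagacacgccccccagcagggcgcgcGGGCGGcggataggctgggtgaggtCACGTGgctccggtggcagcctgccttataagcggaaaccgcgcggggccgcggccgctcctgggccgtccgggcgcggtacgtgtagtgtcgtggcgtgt
Hmgcs1: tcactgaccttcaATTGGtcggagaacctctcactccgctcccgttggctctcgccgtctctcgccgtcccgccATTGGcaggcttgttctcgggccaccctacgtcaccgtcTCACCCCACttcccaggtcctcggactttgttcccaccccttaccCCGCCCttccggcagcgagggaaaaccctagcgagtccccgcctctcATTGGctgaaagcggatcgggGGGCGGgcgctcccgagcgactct
Idi1: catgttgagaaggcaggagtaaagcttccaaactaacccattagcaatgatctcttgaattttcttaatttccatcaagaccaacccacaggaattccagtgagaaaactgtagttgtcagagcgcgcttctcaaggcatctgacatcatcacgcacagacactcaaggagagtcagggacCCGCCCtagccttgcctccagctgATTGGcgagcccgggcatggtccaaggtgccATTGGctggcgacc
Mvd: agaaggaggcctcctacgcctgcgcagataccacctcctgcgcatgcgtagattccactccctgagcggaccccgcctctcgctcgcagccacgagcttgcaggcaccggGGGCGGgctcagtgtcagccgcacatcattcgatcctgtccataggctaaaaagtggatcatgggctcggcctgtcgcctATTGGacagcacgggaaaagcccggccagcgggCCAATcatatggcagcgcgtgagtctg
Nsdhl: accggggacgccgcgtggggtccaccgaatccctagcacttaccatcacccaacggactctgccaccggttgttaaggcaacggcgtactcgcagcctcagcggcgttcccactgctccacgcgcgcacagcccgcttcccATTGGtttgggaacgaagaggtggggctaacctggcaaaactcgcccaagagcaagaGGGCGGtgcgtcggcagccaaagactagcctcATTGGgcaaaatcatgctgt

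The table of windows held 26 of the 32 members. CCAAT stood in 19 of these windows (73.1%), against 34.5% of 27025 mouse windows, and GGGCGG in 18 (69.2%), against 32.9%. CACGTG stood in 4 member windows (15.4%), those of Insig1, Hsd17b7, Sc5d and Elovl5, against 6.05% of all windows. TCACNCCAC stood in 1 (3.85%), that of Hmgcs1, against 1.04%. Matches were allowed to overlap. Among members called higher at MII in both genotypes relative to other mRNA, 9 of 10 had a window, and CCAAT stood in 8, GGGCGG in 8 and CACGTG in 4 of these. Among those called lower, 7 of 8 had a window, and CCAAT stood in 5, GGGCGG in 4 and CACGTG in 0. A match describes letters in a window and no binding.

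The 3′ ends bear on the readout because priming needs a poly(A) tail. In oocytes, tails lengthen or shorten during maturation, and the U-rich cytoplasmic polyadenylation element upstream of the AAUAAA signal takes part in this. Shown here are 30 bases that end with the signal, in capitals with any TTTTAT or TTTTAAT, for 2 members higher at MII relative to other mRNA and not called per spike-in (Insig1 and Sc5d) and 2 lower on both scales (Mvd and Dhcr7), from the GENCODE vM21 transcripts on GRCm38. They lie at chr5:28078621-28078650 (plus strand), chr9:42251617-42251646 (minus strand), chr8:122433617-122433646 (minus strand) and chr7:143848364-143848393 (plus strand).
Insig1: tgcattctttttttttttacTTTTATTAAA
Sc5d: tatttccagtgtgggaatattttgAATAAA
Mvd: gtcagtggacctgaggaccacaggAATAAA
Dhcr7: ttagccttgcaggcagttctttgtATTAAA

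In the Insig1 window TTTTAT runs into the ATTAAA signal and shares its last letters with it, so the capitals form 1 run. In the last 100 bases of the transcript, TTTTAT or TTTTAAT on the sense strand stood in 5 of 32 members (15.6%), against 16.5% of 21759 protein-coding genes. It stood in 3 of the 10 members called higher at MII in both genotypes (Insig1, Idi1 and Msmo1) and in 0 of the 8 called lower. The search did not ask on which side of the signal a match lay. In Idi1 the signal ends 90 bases before the transcript end, and the match lies after it, not upstream. An AATAAA or ATTAAA signal stood in 31 of 32 members (96.9%), against 74.1% of all protein-coding genes.

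The first comparison was between MII and GV within each genotype, which asks how these transcripts change as oocytes mature. Relative to other mRNA, but not per spike-in, the transcripts of the regulators and enzymes divided by direction. Insig1, Hmgcs1, Idi1, Cyp51, Msmo1, Hsd17b7, Sc5d, Acly, Scd1 and Elovl5 were called higher at MII in both genotypes, and Srebf1, Scap, Mvd, Fdft1, Tm7sf2, Nsdhl, Dhcr7 and Fasn were called lower in both. In ZcKO oocytes 11 of the 28 members tested were higher and 8 lower at an adjusted p under 0.05 (edgeR, Benjamini-Hochberg). Of all 11607 genes tested, 29.5% were higher and 34% lower in ZcKO. In control oocytes 11 members were higher and 9 lower, beside 30.1% and 33.8% of all genes. The median log2 change of the members was 0.43 in ZcKO and -0.23 in control, and that of all genes -0.04 in ZcKO and 0.01 in control. The higher calls depended on the scale: per spike-in 1 member, Scd1, was called higher and 20 lower in ZcKO, beside 0.801% and 88% of all genes. In control 0 were higher and 19 lower, beside 0.56% and 70.1% of all genes.

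**Figure D1:**
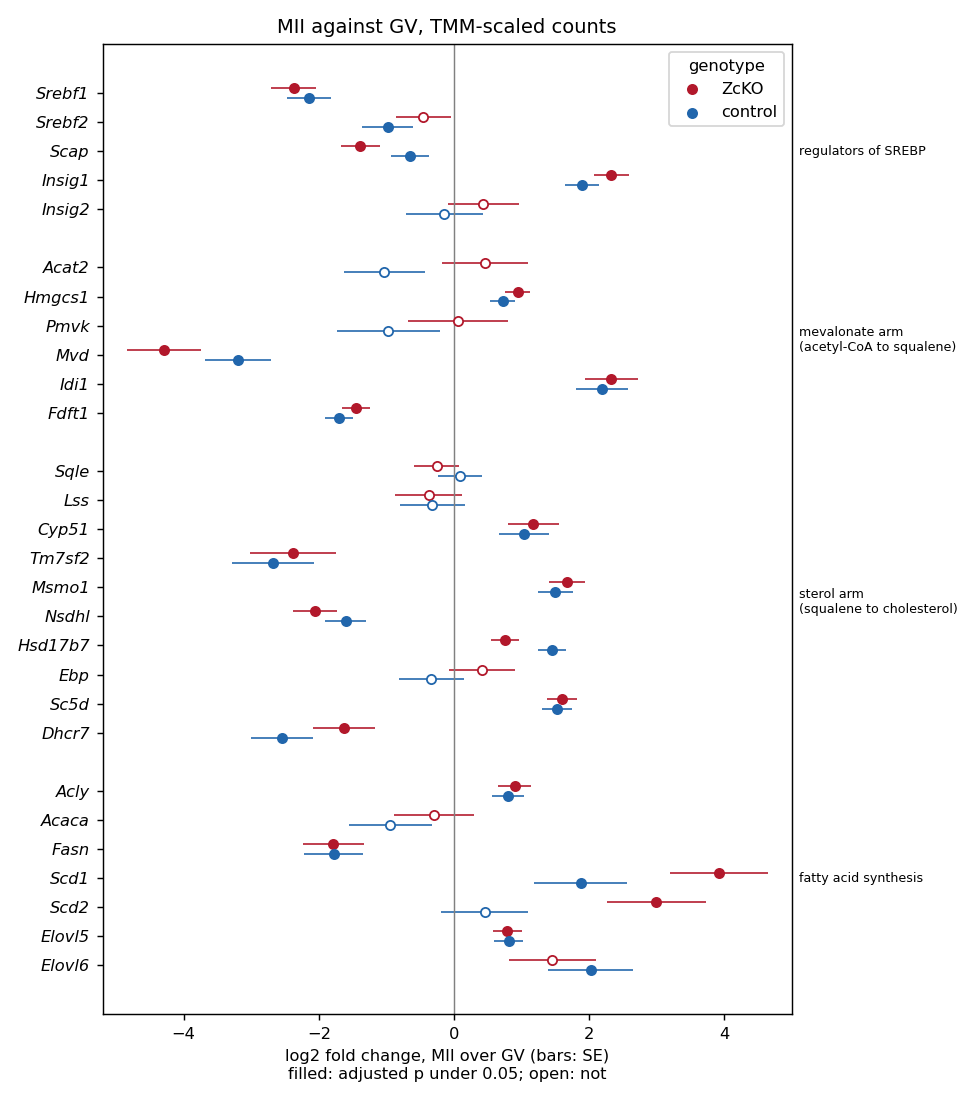
Log2 change of each tested member, MII over GV, relative to other mRNA (TMM), with standard errors, in ZcKO and control oocytes; filled points had an adjusted p under 0.05. Insig1 and Idi1 stand at 2.33 in ZcKO and Mvd at -4.30.

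Insig1, whose product retains SCAP in the endoplasmic reticulum (chr5:28071363-28078662, plus strand, mm10, as are all gene positions here), was the most abundant member at MII. It had 1129, 1189 and 1601 CPM in MII ZcKO libraries, against 178, 296 and 403 CPM in GV ZcKO libraries. Control libraries had 979.5, 869.97 and 1069.6 CPM at MII, against 386, 212 and 276 CPM at GV. Every MII library lay above every GV library. The log2 change was 2.33 (SE 0.26, adjusted p = 4.31e-07) in ZcKO and 1.90 (SE 0.26, adjusted p = 4.22e-06) in control. Per 1000 ERCC counts Insig1 had 2.29, 2.63 and 2.42 counts in MII ZcKO, against 2.33, 2.20 and 2.54 in GV ZcKO, and 1.81, 2.01 and 2.59 in MII control, against 1.68, 1.48 and 2.40 in GV control. On that scale the stages overlapped, with a log2 change of 0.05 (SE 0.39, adjusted p = 0.897) in ZcKO and 0.20 (SE 0.39, adjusted p = 0.637) in control, while the median gene was lower.

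Relative to other mRNA, the other regulators went the other way or did not pass the test. Srebf1, which encodes SREBP1 (chr11:60199089-60222581, minus strand), had 5.75, 8.78 and 4.28 CPM in MII ZcKO, against 41.1, 41.1 and 25.7 CPM in GV ZcKO. Its control libraries had 7.63, 7.85 and 4.62 CPM at MII, against 33.8, 38.3 and 25.98 CPM at GV. The stages did not overlap, and the log2 change was -2.37 (SE 0.33, adjusted p = 7.09e-06) in ZcKO and -2.14 (SE 0.32, adjusted p = 1.6e-05) in control, and -4.73 and -3.87 per spike-in. Exons of Srebf1 overlap Rai1 on the opposite strand, and the strand setting of the counting is not given in the sources used here, so its level is uncertain.

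Scap, the escort of SREBP (chr9:110333288-110384950, plus strand), had 61.3, 52.4 and 65.6 CPM in MII ZcKO, against 223, 177 and 111 CPM in GV ZcKO. In control oocytes Scap had 95.7, 60.98 and 81.2 CPM at MII, against 131, 178 and 104.97 CPM at GV. The log2 change was -1.38 (SE 0.28, adjusted p = 3.51e-04) in ZcKO and -0.65 (SE 0.28, adjusted p = 0.0473) in control. The control call was lost in 8 fits that each left out 1 library, with log2 changes of -0.72 to -0.36 and adjusted p of 0.0533 to 0.312. Srebf2, which encodes SREBP2, had 2.14 to 5.36 CPM in MII ZcKO and 5.23 to 5.67 CPM in GV ZcKO. Its log2 change of -0.45 did not pass the test relative to other mRNA, but per spike-in it was -2.72 and was called. Control Srebf2 had 3.62 to 4.91 CPM at MII and 6.07 to 10.8 CPM at GV, and its log2 change of -0.98 (SE 0.38, adjusted p = 0.03) was lost without GV control replicate 1 or 3 or MII control replicate 2 or 3, at -0.90 to -0.86. Insig2, the second INSIG gene, had 1.78 to 7.28 CPM in MII ZcKO, 3.33 to 4.41 in GV ZcKO, 0.545 to 3.53 in MII control and 2.37 to 3.04 in GV control. It passed no test relative to other mRNA. Per spike-in, Srebf2 and Insig2 were called lower at MII in both genotypes.

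In the mevalonate arm, 2 of the 6 members tested were higher and 2 lower at MII in each genotype relative to other mRNA, and 0 higher and 5 lower per spike-in. Of all genes, 29.5% were higher and 34% lower in ZcKO relative to other mRNA, and 30.1% and 33.8% in control. Per spike-in, 88% of all genes were lower in ZcKO and 70.1% in control. Hmgcs1, the cytosolic HMG-CoA synthase that opens the arm (chr13:119690379-119708260, plus strand), had 613, 561 and 577 CPM in MII ZcKO, against 359.6, 326 and 317 CPM in GV ZcKO. In control it had 335, 559 and 548 CPM at MII, against 310.1, 323 and 319.8 CPM at GV, and MII control replicate 1 lay near the GV range. Its log2 change was 0.94 (SE 0.18, adjusted p = 1.89e-04) in ZcKO and 0.72 (SE 0.18, adjusted p = 0.00192) in control, but per spike-in it was lower at MII, by -1.44 and -0.98.

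Idi1, the isomerase that makes dimethylallyl diphosphate (chr13:8885501-8892451, plus strand), had 71.7, 64.2 and 48.1 CPM in MII ZcKO, against 3.73, 12.9 and 24.3 CPM in GV ZcKO. Control oocytes had 50.7, 54.9 and 54.0 CPM at MII, against 16.9, 7.39 and 14.7 CPM at GV. No MII library overlapped a GV library, although the GV ZcKO libraries themselves spread widely. The log2 change was 2.33 (SE 0.39, adjusted p = 5.16e-05) in ZcKO and 2.19 (SE 0.38, adjusted p = 8.83e-05) in control, and 0.24 and 0.47 per spike-in, where neither passed the test. Without GV ZcKO replicate 3, the highest of its group, the ZcKO change of Idi1 was 2.95.

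Mvd, the decarboxylase that makes isopentenyl diphosphate (chr8:122433601-122443422, minus strand), was close to 0 in the MII libraries. It had 1.15, 0.605 and 0 CPM in MII ZcKO, or 3, 2 and 0 counts, against 14.0, 9.92 and 15.7 CPM in GV ZcKO, or 45, 36 and 47 counts. In control it had 0.818, 0.604 and 1.36 CPM at MII, against 10.5, 10.3 and 8.52 CPM at GV. The stages did not overlap, and the log2 change was -4.30 (SE 0.55, adjusted p = 2.27e-06) in ZcKO and -3.19 (SE 0.49, adjusted p = 1.84e-05) in control. Without MII ZcKO replicate 1 the ZcKO change of Mvd was -5.03. Per spike-in it was -6.57 in ZcKO and -4.89 in control.

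Fdft1, squalene synthase, which commits farnesyl diphosphate to sterols (chr14:63145150-63179578, minus strand), was the most abundant member at GV. It had 231, 273 and 301 CPM in MII ZcKO, against 617, 751 and 1076 CPM in GV ZcKO. Control Fdft1 had 275, 219 and 222 CPM at MII, against 885, 833 and 879 CPM at GV. All GV libraries lay above all MII libraries, with a log2 change of -1.44 (SE 0.21, adjusted p = 8.21e-06) in ZcKO and -1.71 (SE 0.21, adjusted p = 1.28e-06) in control. Exons of Fdft1 overlap Ctsb on the opposite strand, so reads of both may be mixed; the same holds for Hmgcs1, Idi1, Scap, Lss and Elovl6, each of which overlaps a gene with no named function on the opposite strand, and for Fdps, which overlaps one on its own strand. Acat2, the acetoacetyl-CoA thiolase, and Pmvk, phosphomevalonate kinase, had at most 10.5 and 3.43 CPM and passed no stage test relative to other mRNA. Per spike-in both were called lower at MII in each genotype. Mvk, mevalonate kinase, with 0 to 4 counts, and Fdps, farnesyl diphosphate synthase, with 0 to 5, were too low to be tested anywhere.

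**Figure D2:**
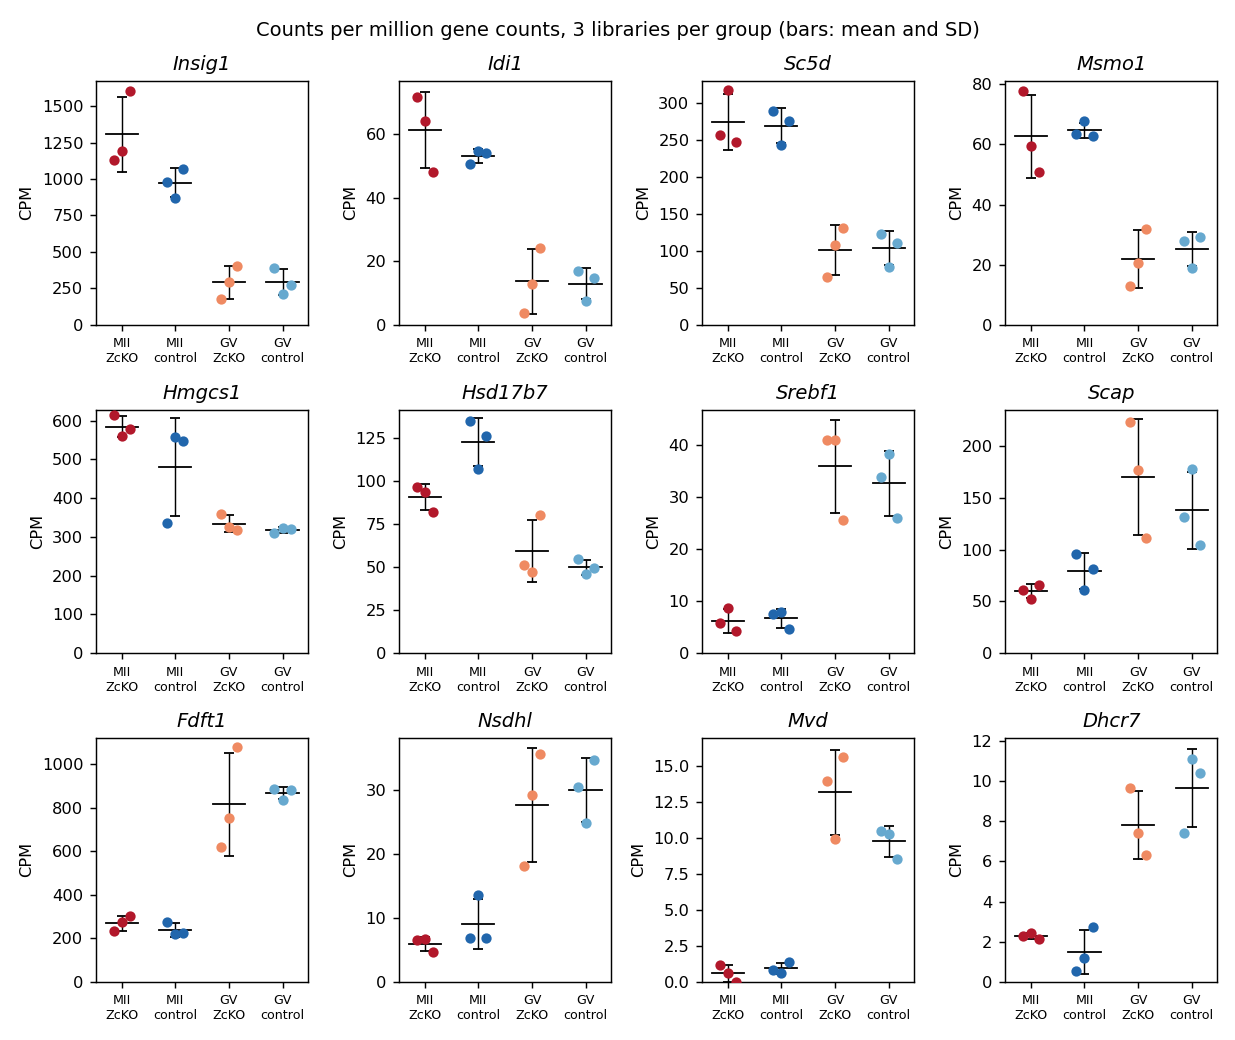
CPM in each library (points) of 12 members, with group means and SD (bars), for MII ZcKO, MII control, GV ZcKO and GV control. Insig1 reaches 1601 CPM at MII and Fdft1 1076 CPM at GV.

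Levels per kilobase of exon can be compared between genes. At MII the order by mean CPM per kb was Insig1 (422 ± 82.997 in ZcKO and 315 ± 32.3 in control, SD, n = 3), Hmgcs1 (127 ± 5.88 and 105 ± 27.5), Elovl5 (76.5 ± 18.9 and 79.7 ± 10.1), Fdft1 (63.5 ± 8.30 and 56.5 ± 7.46) and Sc5d (56.2 ± 7.75 and 55.3 ± 4.95). At GV it was Fdft1 (193 ± 55.9 in ZcKO and 205 ± 6.69 in control), Insig1 (94.6 ± 36.4 and 94.2 ± 28.5), Hmgcs1 (72.8 ± 4.87 and 69.2 ± 1.48) and Elovl5 (49.0 ± 3.51 and 50.4 ± 7.27). In MII ZcKO the SD ranges of Elovl5, Fdft1 and Sc5d met, whereas in MII control each Elovl5 library lay above each library of the other two, which overlapped. At GV the SD ranges of Insig1 and Hmgcs1 met. Insig1 took 41.7% of all member counts in MII ZcKO against 13.3% in GV ZcKO, and 36.3% in MII control against 13.3% in GV control. Fdft1 took 8.61% in MII ZcKO against 37.4% in GV ZcKO, and 8.95% in MII control against 40.0% in GV control.

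In the sterol arm, 4 of 10 members tested were higher and 3 lower at MII in each genotype relative to other mRNA. Of all genes, 29.5% were higher and 34% lower in ZcKO, and 30.1% and 33.8% in control. Per spike-in 0 members of the arm were higher, with 7 lower in ZcKO and 6 lower in control. On that scale 88% of all genes were lower in ZcKO and 70.1% in control. Sc5d, the sterol desaturase late in the pathway (chr9:42251595-42264256, minus strand), had 257, 317 and 247 CPM in MII ZcKO, against 64.1, 108 and 131 CPM in GV ZcKO. Its levels in control were 289, 242 and 276 CPM at MII, against 122, 78.6 and 111 CPM at GV. The stages were well apart, and the log2 change was 1.59 (SE 0.22, adjusted p = 6.93e-06) in ZcKO and 1.53 (SE 0.22, adjusted p = 1.03e-05) in control, but -0.63 and -0.22 per spike-in.

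Msmo1, the oxidase that starts the sterol demethylation that follows the one by the Cyp51 product (chr8:64718139-64733792, minus strand), had 77.8, 59.3 and 50.97 CPM in MII ZcKO, against 13.1, 20.4 and 32.0 CPM in GV ZcKO. In control it had 63.5, 67.6 and 62.7 CPM at MII, against 27.7, 18.7 and 29.2 CPM at GV. Stages did not overlap in either genotype, and the log2 change was 1.67 (SE 0.26) in ZcKO and 1.501 (SE 0.26) in control, but -0.52 and -0.25 per spike-in. Nsdhl, the dehydrogenase that acts after it in the same demethylation (chrX:72918557-72958514, plus strand), moved the opposite way. It had 6.51, 6.66 and 4.63 CPM in MII ZcKO, against 18.0, 29.2 and 35.7 CPM in GV ZcKO, and 6.82, 13.6 and 6.79 CPM in MII control, against 30.4, 24.8 and 34.7 CPM in GV control. The log2 change of Nsdhl was -2.06 (SE 0.33, adjusted p = 2.52e-05) in ZcKO and -1.60 (SE 0.30, adjusted p = 1.62e-04) in control, and -4.28 and -3.33 per spike-in.

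Hsd17b7, the reductase that completes the same step (chr1:169949535-169969241, minus strand), had 96.2, 93.2 and 82.0 CPM in MII ZcKO, against 51.0, 47.1 and 79.98 CPM in GV ZcKO. Control Hsd17b7 had 134, 107 and 126 CPM at MII, against 54.4, 45.9 and 49.4 CPM at GV. GV ZcKO replicate 3 came close to the lowest MII ZcKO library, whereas the control stages were wide apart. The log2 change was 0.76 (SE 0.21, adjusted p = 0.00377) in ZcKO and 1.45 (SE 0.21, adjusted p = 8.85e-06) in control, but -1.53 and -0.30 per spike-in.

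The remaining sterol enzymes were scarce. Cyp51, the lanosterol demethylase, had 8.20 to 13.8 CPM in MII ZcKO against 3.11 to 6.67 CPM in GV ZcKO, and 6.52 to 13.9 CPM in MII control against 4.06 to 6.39 CPM in GV control. Its log2 change was 1.17 (SE 0.38, adjusted p = 0.0114) in ZcKO and 1.03 (SE 0.37, adjusted p = 0.0202) in control, but -1.02 and -0.74 per spike-in. The ZcKO call was lost without GV ZcKO replicate 1 (0.93, adjusted p = 0.0557) or MII ZcKO replicate 1 (0.98, adjusted p = 0.0512), over a range of adjusted p of 0.0101 to 0.0822, and the control call without GV control replicate 1 (0.86) or MII control replicate 2 (0.78). Exons of Cyp51 overlap Akap9 on the opposite strand.

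Dhcr7, which makes cholesterol in the last reduction (chr7:143823145-143848410, plus strand), had 2.30, 2.42 and 2.14 CPM in MII ZcKO, against 9.64, 7.44 and 6.33 CPM in GV ZcKO. In control its values were 0.545, 1.21 and 2.72 CPM at MII, against 7.44, 11.1 and 10.4 CPM at GV. The stages did not overlap, with a log2 change of -1.62 (SE 0.46, adjusted p = 0.0047) in ZcKO and -2.55 (SE 0.46, adjusted p = 1.05e-04) in control, which was -3.29 without MII control replicate 3. Tm7sf2, a sterol reductase, had at most 1.53 CPM at MII and at least 3.11 CPM at GV over both genotypes, with log2 changes of -2.38 in ZcKO (-3.37 without MII ZcKO replicate 1) and -2.67 in control (-3.28 without MII control replicate 2); an exon overlap with Vps51 on the same strand leaves its counts uncertain. Sqle, the squalene epoxidase, Lss, which closes the sterol rings, and Ebp, a sterol isomerase, passed no stage test relative to other mRNA. All were called lower at MII per spike-in in both genotypes, and none exceeded 18.3 CPM in any library.

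In fatty acid synthesis, 4 of the 7 members tested were higher and 1 lower at MII in each genotype relative to other mRNA. Of all genes, 29.5% were higher and 34% lower in ZcKO, and 30.1% and 33.8% in control. Per spike-in, 88% of all genes were lower in ZcKO and 70.1% in control. On that scale 1 of these 7 members was higher and 4 lower in ZcKO, and 0 higher and 4 lower in control. Elovl5, which elongates polyunsaturated fatty acids (chr9:77917364-77984519, plus strand), was the most abundant. It had 234, 228 and 346 CPM in MII ZcKO, against 178, 182 and 159 CPM in GV ZcKO, and 319, 249 and 273 CPM in MII control, against 168, 158 and 206 CPM in GV control. The stages did not overlap, with log2 changes of 0.79 in ZcKO and 0.81 in control, both SE 0.21, but -1.64 and -0.99 per spike-in. Acly, which supplies cytosolic acetyl-CoA (chr11:100476353-100528000, minus strand), had 23.005 to 32.95 CPM in MII ZcKO against 12.8 to 19.0 CPM in GV ZcKO, and 27.8 to 31.7 CPM in MII control against 17.2 to 20.3 CPM in GV control. Its log2 change of 0.90 (SE 0.24) in ZcKO and 0.80 (SE 0.24) in control also turned negative per spike-in, at -1.39 and -0.94.

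Fasn, the fatty acid synthase itself (chr11:120805846-120824547, minus strand), had 4.21, 3.94 and 2.50 CPM in MII ZcKO, against 15.6, 12.9 and 11.997 CPM in GV ZcKO. Fasn in control had 1.91, 6.34 and 1.63 CPM at MII, against 9.13, 17.4 and 9.79 CPM at GV. All MII libraries lay below all GV libraries, with log2 changes of -1.79 (SE 0.45) in ZcKO and -1.78 (SE 0.44) in control, which was -2.58 without MII control replicate 2. Acaca, the carboxylase before it, had at most 4.98 CPM and passed no test relative to other mRNA, but was called lower at MII per spike-in in both genotypes. Fads1 and Fads2, the front-end desaturases, had at most 11 and 3 counts in a library and were not tested.

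Scd1 and Scd2 are stearoyl-CoA desaturases that make oleate and lie on chromosome 19. Scd1 (chr19:44394455-44407879, minus strand) had 17.6, 8.48 and 5.703 CPM in MII ZcKO, against 1.56, 0 and 0.667 CPM in GV ZcKO, and 3.27, 7.55 and 1.90 CPM in MII control, against 1.69, 0.528 and 1.49 CPM in GV control. Its log2 change was 3.93 (SE 0.72, adjusted p = 1.25e-04) in ZcKO and 1.88 (SE 0.68, adjusted p = 0.0227) in control. Scd1 was the 1 member still called higher per spike-in, in ZcKO (1.66, adjusted p = 0.0445), with 0.21 and no call in control. The ZcKO change was 5.09 without GV ZcKO replicate 1 and 3.30 without GV ZcKO replicate 2. The control call was lost without GV control replicate 2 (1.56) or MII control replicate 2 (1.25).

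Scd2 (chr19:44293674-44306864, plus strand) had 58.6, 15.4 and 8.20 CPM in MII ZcKO, against 5.60, 3.58 and 1.67 CPM in GV ZcKO, and 7.91, 28.4 and 10.6 CPM in MII control, against 6.76, 17.1 and 12.1 CPM in GV control. The ZcKO stages did not overlap, and the control stages did. The log2 change was 2.99 (SE 0.73, adjusted p = 0.0028) in ZcKO and 0.45 (SE 0.64) in control, where it was not called. Without MII ZcKO replicate 1 the ZcKO change was 1.84, with an adjusted p of 0.00945, and per spike-in it was 0.68 in ZcKO, not called, and -1.27 in control, called lower. Reads shared by Scd1 and Scd2, which are close paralogs, may have been split or dropped. Elovl6, which elongates palmitate, had 0.713 to 3.63 CPM in MII ZcKO against 0.827 to 1.24 CPM in GV ZcKO (log2 change 1.45, adjusted p = 0.0564), and 1.64 to 4.53 CPM in MII control against 0.676 to 0.852 CPM in GV control (2.02, adjusted p = 0.00929). The control value of Elovl6 fell short of the threshold without MII control replicate 2 (1.68, adjusted p = 0.0549).

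**Figure D3:**
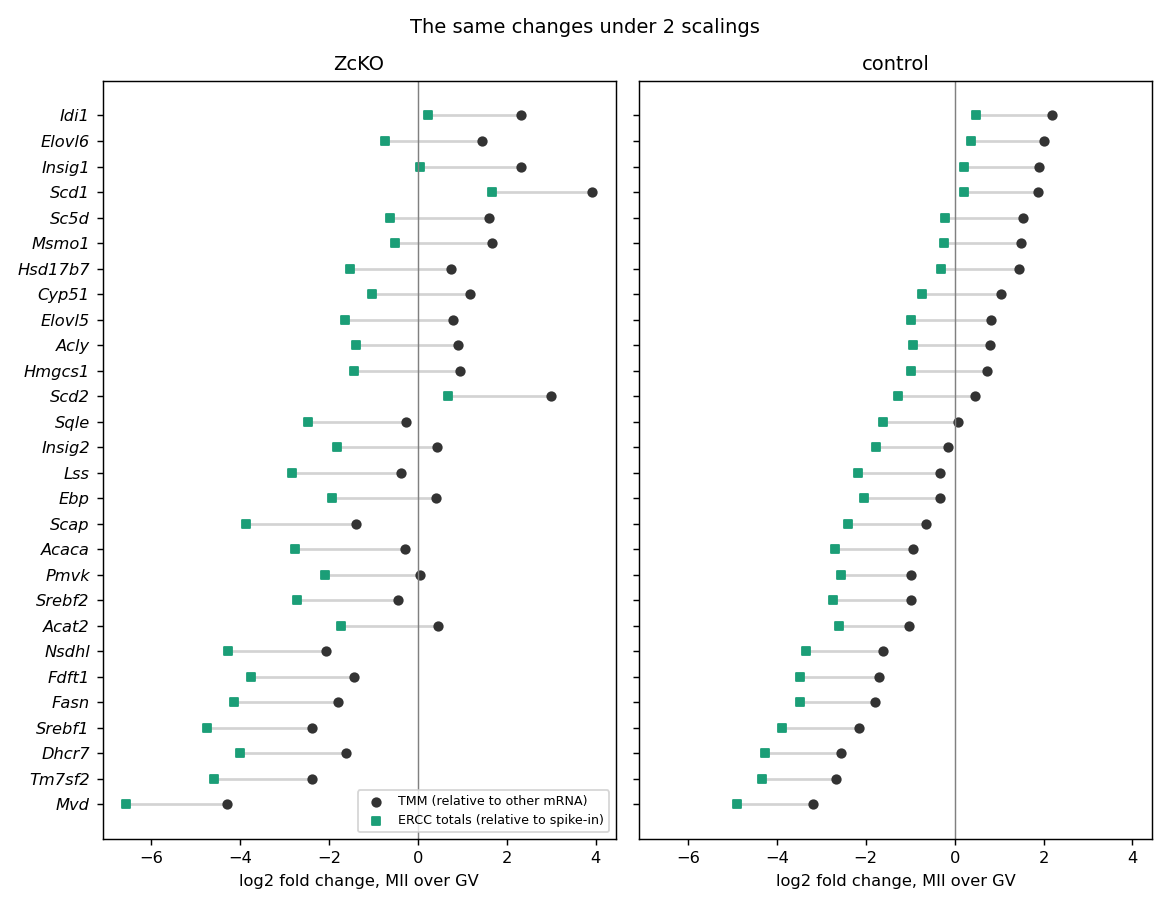
Log2 change of each tested member, MII over GV, relative to other mRNA (TMM, circles) and per spike-in (ERCC, squares), for ZcKO and control. All squares lie left of their circles, and Insig1 stands near 0 per spike-in in both genotypes.

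Markers of cumulus and granulosa cells were higher at MII as well. Of the 23 markers, 13 were tested, and 11 were called higher at MII in ZcKO and 9 higher and 1 lower in control; per spike-in 5 were higher and 2 lower in ZcKO, and 4 higher and 3 lower in control. Serpine2 alone made up most of the summed level at both stages, and leaving it out was chosen after seeing the data. All 23 markers summed to 1980, 1285 and 959 CPM in MII ZcKO, against 339, 415 and 586 CPM in GV ZcKO. In control that sum was 1545, 1405 and 1256 CPM at MII, against 498.5, 413 and 519 CPM at GV. Summed over the 22 markers without Serpine2, the level was 880, 317 and 161 CPM in MII ZcKO, against 69.7, 66.4 and 87.6 CPM in GV ZcKO. In control it was 192, 398 and 254 CPM at MII, against 113, 93.1 and 97.9 CPM at GV. Tnfaip6 and Ptx3, markers of the expanded cumulus, were at 0 in all 6 GV libraries. The library with the highest sum, MII ZcKO replicate 1, also had the highest level of Scd1, Scd2, Idi1, Hmgcs1 (613 CPM), Msmo1 and Acly. Of the other members called higher in ZcKO, Sc5d was highest in MII ZcKO replicate 2 and Elovl5 in replicate 3. Cyp51 was highest in MII control replicate 2 and Hsd17b7 in MII control replicate 1. Being called higher in ZcKO favours a highest value in a MII ZcKO library, and the same was not counted over all genes. Insig1 was highest in MII ZcKO replicate 3, which had the lowest sum among MII libraries. The part of cumulus RNA in these values was not tested. Of 9 blood and immune cell markers, Hbb-bs and Hbb-bt, which encode beta globins, were at 0 in all 12 libraries, and 6 others were at 0 in 9 to 11. The ninth, C1qb, a complement subunit, was detected in all 12, and was lower at MII on both scales. It averaged 4.04 ± 1.13 CPM in MII ZcKO against 58.5 ± 13.4 CPM in GV ZcKO (-3.69), and 5.49 ± 1.84 CPM in MII control against 64.3 ± 15.6 CPM in GV control (-3.40; SD, n = 3 each).

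**Figure D4:**
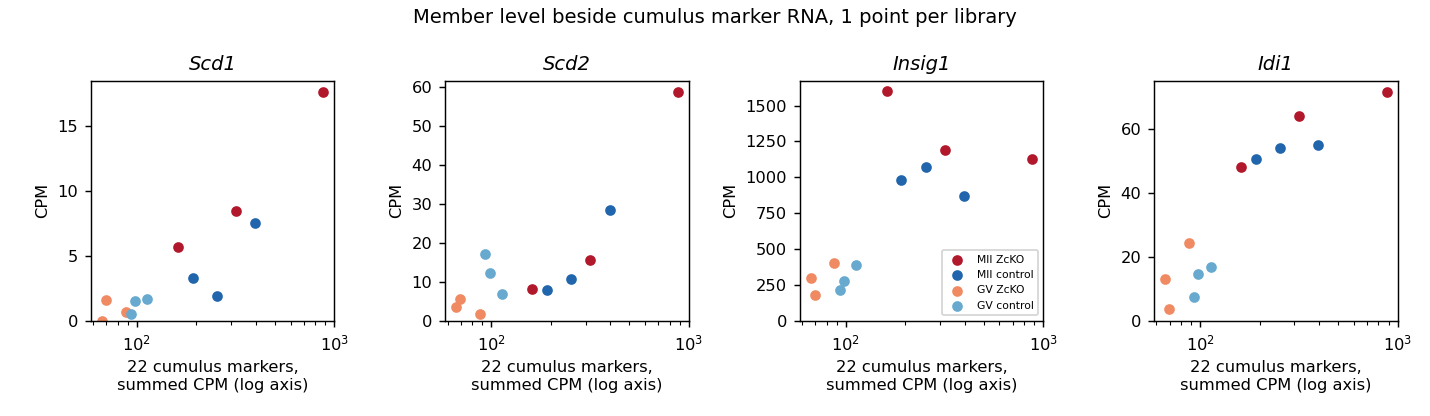
CPM of Scd1, Scd2, Insig1 and Idi1 in each library against the summed CPM of 22 cumulus and granulosa cell markers (log axis). MII ZcKO replicate 1, at 880 CPM of markers, holds the highest Scd1 (17.6 CPM) and Scd2 (58.6 CPM), and Insig1 is highest (1601 CPM) where the MII markers are lowest.

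The second comparison, ZcKO against control at each stage, asks whether loss of Vps34 altered these transcripts. No member passed the test at either stage. At GV, 0 of 25 members tested had an adjusted p under 0.05 by edgeR, beside 0.0825% of all 10911 genes, and 2 had an unadjusted p under 0.05 (240 of all genes). DESeq2 called 0 members there and 13 genes in all. At MII, 0 of 23 members tested passed, beside 0% of 9677 genes, and 2 had an unadjusted p under 0.05 (872 of all genes). DESeq2 called 0 members and 4 genes there. Pik3c3, the deleted gene itself, was not called by edgeR at MII either (log2 difference -2.19, SE 0.39, adjusted p = 0.530). A missing call at MII therefore does not show that a transcript was unchanged. The members' median log2 difference was -0.08 at GV and 0.04 at MII, beside 0.01 and 0.02 for all genes. The difference was under 0.5 on the log2 scale in 21 of 25 members at GV and in 18 of 23 at MII, with a median standard error of 0.32 and 0.36. With 3 libraries a group, the smallest p that an exact permutation test of a single value can give is 0.1.

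**Figure D5:**
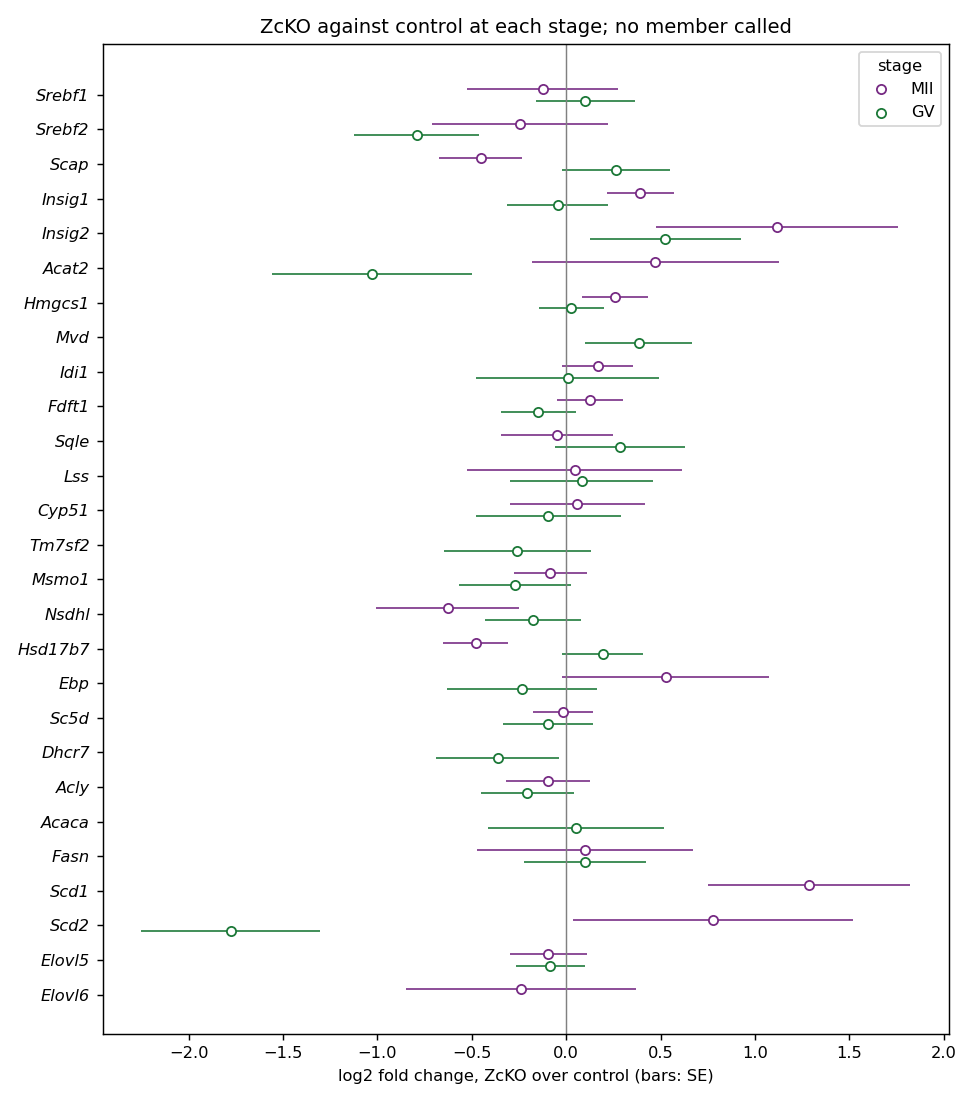
Log2 difference of each tested member, ZcKO over control, with standard errors, at MII and at GV; none had an adjusted p under 0.05. The widest are Scd2 at GV (-1.78) and Scd1 at MII (1.29).

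At GV, Scd2 differed most, with 5.60, 3.58 and 1.67 CPM in ZcKO against 6.76, 17.1 and 12.1 CPM in control. The groups did not overlap, and the log2 difference was -1.78 (SE 0.47, unadjusted p = 0.00275, adjusted p = 1). Without a filter on low counts the same difference, at -1.79, passed with an adjusted p of 0.00516, and over the other settings the adjusted p reached 1. Srebf2 had 5.29, 5.23 and 5.67 CPM in ZcKO against 10.8, 6.07 and 10.4 CPM in control, without overlap (-0.79, SE 0.33, unadjusted p = 0.0332). Of all genes tested at GV, 1.76% had both no overlap and an unadjusted p under 0.05. Cumulus and granulosa cell markers without Serpine2 were lower in these same GV ZcKO libraries, at the 69.7, 66.4 and 87.6 CPM given above against 113, 93.1 and 97.9 CPM in control, a log2 difference of -0.45 without overlap (exact permutation p = 0.1, two-sided, the smallest possible). Leaving out Serpine2 was chosen after seeing the data, and all 23 markers differed by -0.12 (exact permutation p = 0.7), and by 0.28 per spike-in. Per 1000 ERCC counts the sums without Serpine2 overlapped, at 0.912, 0.494 and 0.551 in GV ZcKO against 0.492, 0.653 and 0.852 in GV control. Single markers went both ways: of 7 tested at GV, 2 had a positive and 5 a negative log2 difference, and 0 were called. Inha, an inhibin subunit of granulosa cells, had 14.6, 12.1 and 15.3 CPM in GV ZcKO against 37.2, 36.4 and 28.3 CPM in GV control. Lhcgr, another marker of the list, had 2.49, 2.76 and 2.33 CPM in GV ZcKO against 0, 0.528 and 0.639 CPM in GV control. The part of cumulus and granulosa cell RNA in the Scd2 value was not tested.

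At MII, Hsd17b7 had 96.2, 93.2 and 82.0 CPM in ZcKO against 134, 107 and 126 CPM in control. The groups did not overlap, and the log2 difference was -0.48 (SE 0.17, unadjusted p = 0.0176, adjusted p = 0.530); of all genes tested at MII, 7.05% had both no overlap and an unadjusted p under 0.05. Scd1 had 17.6, 8.48 and 5.703 CPM in ZcKO against 3.27, 7.55 and 1.90 CPM in control, with overlap (1.29, SE 0.54, unadjusted p = 0.0351, adjusted p = 0.538). Insig1 lay higher in each MII ZcKO library than in any MII control library (0.39, SE 0.18, unadjusted p = 0.0503, adjusted p = 0.552), and it overlapped per spike-in. Genotypes were also without overlap for Hmgcs1 (0.26, SE 0.17) and Nsdhl (-0.63, SE 0.38) at MII, and for Insig2 at GV (0.52, SE 0.40). None of these was called, and the share of all genes with no overlap alone was not counted. Sc5d, with the smallest standard error of any member at MII, differed by -0.02 (SE 0.16), and Fdft1 by 0.13 (SE 0.18).

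The third comparison asked whether the change between GV and MII differed between genotypes. The difference of the changes, ZcKO minus control, was called for 0 of 28 members, beside 0.00862% of all genes (1 of 11607, and 608 at an unadjusted p under 0.05); DESeq2 called 0 members and 5 genes. It was widest for Scd2 (2.54, SE 0.98, unadjusted p = 0.0212, adjusted p = 0.875) at the upper end and for Mvd (-1.10, SE 0.83, adjusted p = 0.882) at the lower. Hsd17b7 had -0.69 (SE 0.29, unadjusted p = 0.029, adjusted p = 0.875). For Insig1 it was 0.43 (SE 0.35), for Idi1 0.14 (SE 0.54), for Hmgcs1 0.22 (SE 0.25) and for Fdft1 0.26 (SE 0.29). The 3 members called in 1 genotype and not in the other relative to other mRNA, Scd2, Srebf2 and Elovl6, were thus not shown to differ between them.

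Genes around the pathway were read from lists of neighbouring functions, with all directions relative to other mRNA. Per spike-in these directions changed: over the 4 lists given here, 0 to 1 genes of a list were called higher in ZcKO, 0 in control, and 7 to 17 lower, and of the genes named only those lower at MII kept their call in both genotypes. Beside the counts of these lists, 29.5% of all genes were higher and 34% lower in ZcKO, and 30.1% and 33.8% in control. Per spike-in, 88% of all genes were lower in ZcKO and 70.1% in control. Among genes of SREBP processing and sterol sensing, 4 of 11 tested were higher and 3 lower at MII in ZcKO, and 6 higher and 2 lower in control. Mbtps2, the site-2 protease that releases SREBP, had 67.9 ± 6.04 CPM in MII ZcKO against 30.5 ± 3.89 CPM in GV ZcKO (log2 change 1.29), and 50.9 ± 2.32 CPM in MII control against 29.0 ± 4.79 CPM in GV control (0.96; SD, n = 3 each). In sterol uptake and transport, 7 of 18 were higher and 1 lower in ZcKO, and 6 higher and 2 lower in control. The lipoprotein receptor gene Vldlr changed by 2.51 in ZcKO and 1.37 in control, and Osbpl2, an oxysterol-binding protein relative, by -1.69 and -1.51.

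In the isoprenoid branch, which uses mevalonate for purposes other than sterols, 5 of 13 were higher and 3 lower in ZcKO, and 4 higher and 3 lower in control. The 2 subunits of the enzyme for dolichol synthesis moved apart: Nus1 by 1.12 in ZcKO and 1.38 in control, and Dhdds by -2.24 and -2.64. Pggt1b, the beta subunit of a protein prenyltransferase, changed by 1.59 and 1.47. Among genes of fatty acid supply, elongation and activation, 4 of 19 were higher and 10 lower in ZcKO, and 5 higher and 10 lower in control. Mecr and Acot7 were the lowest in both genotypes. Mecr, a reductase of mitochondrial fatty acid synthesis, had 8.08 ± 0.965 CPM in MII ZcKO against 94.6 ± 29.3 CPM in GV ZcKO (-3.39), and 7.14 ± 1.55 CPM in MII control against 90.8 ± 22.9 CPM in GV control (-3.51). Acsl4, which activates arachidonate, changed by 2.49 in ZcKO and 2.15 in control. No gene of these lists was called between genotypes at either stage.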

How the data were processed

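The authors deposited raw counts of reads for each gene symbol, from Smart-seq2 libraries of pooled oocytes. Per the submitters' processing notes, fastp, HISAT2, featureCounts and build mm10 were used (no versions). Which annotation, strand setting and multi-mapping rule the counting used is not given in the sources used here. Columns were matched to samples by name, with the letter C read as control and T as ZcKO, although the sample titles use neither letter; every genotype direction rests on this, and 6 columns that match no label were not used. Replicates of a group differed by more than sampling noise (lowest chi-square per degree of freedom 4.87). No label ties libraries to animals, so p-values measure the spread between libraries, which may be partly technical.

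The 92 spike-ins were left out of gene totals. Tests were run in R 4.3.3 with edgeR 4.0.16 (TMM, filterByExpr, robust quasi-likelihood, Benjamini-Hochberg over all genes tested, threshold 0.05), checked on simulated data. Genotype comparisons used the 6 libraries of a stage. Stage changes and their difference came from 1 fit of 12 libraries. Each standard error is the size of the log2 change over the square root of F. CPM values use gene totals. Alternatives were DESeq2 1.42.0, its size factors, no filter on low counts, ERCC totals as library sizes, a replicate block, 1 fit for all genotype tests, and each library left out. The members and lists were chosen with earlier results of these data known. Described were all members called in any comparison, those with no overlap of genotypes and an unadjusted p under 0.05, and the SREBP regulators; of each list, up to 3 of the highest and 3 of the lowest called genes per stage comparison could be named. Gene spans are those of GENCODE vM21, and promoter windows are from RefSeq.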

Additional observations from a re-analysis of the deposited data

How the results depend on the processing

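Per spike-in, 1 member was called higher and 20 lower at MII in ZcKO, and 0 higher and 19 lower in control, and 14 log2 changes that were called relative to other mRNA reversed, as did 7 that were not called. The 14 were, in ZcKO and then in control, -1.39 and -0.94 for Acly, -1.02 and -0.74 for Cyp51, -1.64 and -0.99 for Elovl5, -1.44 and -0.98 for Hmgcs1, -1.53 and -0.30 for Hsd17b7, -0.52 and -0.25 for Msmo1, and -0.63 and -0.22 for Sc5d. The ERCC share was higher in every MII library, so this scaling lowers all MII values by its construction; fewer mRNA molecules and less capture cannot be told apart. Without a filter on low counts, 1 member, Scd2, was called at GV between genotypes (-1.79, adjusted p = 0.00516), and the control changes of Acly (0.71) and Cyp51 (0.93) fell short of the threshold; the cause was not tested. Over all genes that setting called 28 at GV, 96 at MII and 18 for the difference of changes. With 1 library left out at a time, 18 to 20 members were called in ZcKO (10 to 12 higher, 8 lower) and 15 to 20 in control (8 to 11 higher, 7 to 9 lower), and 0 in the genotype comparisons and the difference of changes; the lowest control count was without MII control replicate 2. Members called under DESeq2 or its size factors stayed within the stated limit of 1.5 times the reported count, and no described value changed its call. The replicate numbers share only a number: deviations of libraries with the same number correlated at -0.23 to 0.21. With the replicate block 19 members were called in ZcKO and 20 in control, 0 between genotypes, and no member changed its call; over all genes it called 11 at GV. The summed cumulus and granulosa markers differed between ZcKO and control at GV by -0.12 on the log2 scale (exact permutation p = 0.7), and by 0.28 per spike-in (exact p = 0.5). At MII the sum differed by -0.05 (exact permutation p = 0.9), and by 0.41 without Serpine2 (exact p = 0.7), an alternative chosen after seeing the data. Members with few counts, among them Mvd, Tm7sf2, Elovl6 and Scd1, are limited by depth, with standard errors of 0.49 to 0.72 for their stage changes.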

Other observations

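Genes that use or burn the fatty acids were measured in the same libraries, and their directions here are relative to other mRNA. Per spike-in, 0 genes of both lists were called higher at MII in either genotype, 15 and 14 of the glycerolipid genes were lower in ZcKO and control, and 12 and 9 of those of beta-oxidation. Of all genes, 88% were lower per spike-in in ZcKO and 70.1% in control. Of 16 tested genes of glycerolipid synthesis and lipid droplets, 2 were higher and 7 lower at MII in ZcKO, and 2 higher and 5 lower in control, beside 29.5% and 34% of all genes in ZcKO and 30.1% and 33.8% in control; their median log2 change was -0.16 in ZcKO and -0.17 in control. Agpat2, which makes phosphatidic acid, had 1.74 ± 0.965 CPM in MII ZcKO against 51.5 ± 6.66 CPM in GV ZcKO, and 1.21 ± 0.860 CPM in MII control against 54.6 ± 5.22 CPM in GV control (SD, n = 3 each). Its log2 change of -4.73 (SE 0.38) in ZcKO and -5.30 (SE 0.39) in control had adjusted p of 6.81e-09 and 1.84e-09 by edgeR. Pnpla2, the lipase that opens stored triglycerides, and Abhd5, its activator, were both lower at MII, by log2 changes of -2.98 and -2.27 in ZcKO and -2.39 and -2.10 in control. Agpat5, a related acyltransferase, was higher, by 0.70 and 0.86, but lower per spike-in, by -1.71 and -0.82.

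Of 16 tested genes of beta-oxidation, 7 were higher and 2 lower at MII in ZcKO, and 6 higher and 3 lower in control, with median log2 changes of 0.19 and 0.41. Acadm, the medium-chain acyl-CoA dehydrogenase, had 132 ± 12.4 CPM in MII ZcKO against 40.0 ± 12.03 CPM in GV ZcKO, and 109 ± 13.7 CPM in MII control against 41.4 ± 4.22 CPM in GV control; its log2 change was 1.87 in ZcKO and 1.53 in control, but -0.39 and -0.20 per spike-in. The carnitine palmitoyltransferases parted, with Cpt1a at 3.91 and Cpt2 at -2.55 in ZcKO, and 3.37 and -2.16 in control. Cpt1a was close to 0 at GV, with 0.495 ± 0.469 CPM in ZcKO and 0.511 ± 0.708 CPM in control. At MII it had 7.61 ± 6.04 and 5.29 ± 0.922 CPM, and its changes had an SE of 0.80 and 0.78. Per spike-in Cpt1a was not called (1.70 and 1.69), whereas Cpt2 was called lower (-4.77 and -3.93). Etfb, a subunit of the electron carrier that serves these dehydrogenases, changed by -3.71 in ZcKO and -3.66 in control. No gene of either list was called between genotypes.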
